A study of Oryza sativa with 18 samples.

Results

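Late embryogenesis abundant (LEA) proteins, of which the dehydrins form one family, are small and strongly hydrophilic. Plants accumulate them in maturing seeds and in tissues that lose water, and they are known for protecting proteins and membranes when cells dry. Many of their genes respond to abscisic acid (ABA): the hormone binds soluble receptors, the receptors hold back the clade A PP2C phosphatases, SnRK2 kinases are thereby freed to act, and bZIP transcription factors that recognise ABA-responsive promoter elements switch the genes on. The genes described here are 9 such loci of rice, chosen by locus identifier from the 28251 MSU loci in the 3 deposited tables: the tandem dehydrin genes RAB16A, RAB16B, RAB16C and RAB16D, a further dehydrin gene on the same stretch of chromosome 11, the dehydrin gene LIP9, the group 3 LEA genes LEA3 and WSI18, and Em, a gene for a small hydrophilic seed protein. The rule would have taken the row of the highest mean level where a locus had several rows. Each locus had a single row in each table that held it, so no level entered the choice of rows. The set of 9 genes itself was chosen with earlier results of these data known.

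RNA-seq was carried out on callus, the unorganised tissue grown from cultured seed, subcultured for 21 days. The 18 libraries formed 6 groups of 3 biological replicates. YIL25 is an introgression line that carries segments of a wild rice, Oryza rufipogon, in the indica cultivar Teqing. pCPL (pCPL-BOC1-Teqing) is Teqing transformed with the YIL25 copy of BROWNING OF CALLUS1 (BOC1) under its own promoter, and pOE (pOE-BOC1-Teqing) is Teqing with the YIL25 coding sequence of BOC1 under the constitutive Ubiquitin promoter. BOC1, LOC_Os03g12820, encodes a protein of the SRO family. A separate Teqing group was given for each line: Teqing1 for YIL25, Teqing2 for pCPL and Teqing3 for pOE. The study describes the sequenced callus of each construct as that of a single transgenic line, which limits it as a model of the construct, and the sources used here do not say whether the Teqing libraries came from plants that had passed through transformation.

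The comparisons ask how the callus of each line differed from the Teqing group given for it. Whether a line and its Teqing group were grown or sequenced in the same batch was not given in the sources used here. Values are FPKM, fragments scaled by gene length and by the depth of the library, and the 3 tables were normalized separately. The depth recovered from the FPKM steps was 16620557 to 17448446 reads over genes in pCPL against 17794713 to 19739116 in Teqing2, and 20178993 to 21893028 in pOE against 20934215 to 26298032 in Teqing3. BOC1 averaged 102 FPKM in pCPL against 57.6 FPKM in Teqing2, and 579 FPKM in pOE against 65.5 FPKM in Teqing3. The YIL25 table ended early on chromosome 3, so BOC1 had no row there and only LIP9 on chromosome 2 and WSI18 on chromosome 1 were measured in YIL25. A gene was called where its change reached 2-fold on the log2(FPKM + 1) scale and its adjusted p was under 0.001 by limma with Benjamini-Hochberg adjustment over every gene that averaged more than 1 FPKM in the line or in its Teqing. On that scale the change of a low gene is understated.

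The LEA and dehydrin genes were higher in pCPL callus and lower in pOE callus, each against its own Teqing. In pCPL, 8 of the 9 genes were called higher, where 7.84% of all 21659 genes tested were called higher, and 0 were called lower, where 5.97% were. In pOE, 8 of 8 genes tested were called lower, where 8.9% of all 22122 genes tested were called lower and 6.95% higher. RAB16C, at 0.431 FPKM in pOE and 0.461 FPKM in Teqing3, was below the filter, and with no filter 8 of 9 were called. RAB16A, RAB16B, RAB16D and the chromosome 11 dehydrin LOC_Os11g26570 averaged under 1 FPKM in pOE. They entered only through Teqing3, so a call could only be lower. RAB16C entered in pCPL only through pCPL, at 1.36 FPKM against 0.109 FPKM in Teqing2. In YIL25, both genes in the table were called higher, where 8.41% of the 8196 genes tested were called higher. Genes tested were counted as rows, and the YIL25 table held 7685 MSU loci, so its share covers a different set of rows. The median log2 fold change over the genes was 1.63 in pCPL, beside -0.01 over all genes tested, and -3.00 in pOE, beside a median of all genes that was close to 0. The genes were not picked blind to these results, and the shares are a description.

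Summed over the 9 genes, the level was 2012, 1968 and 2032 FPKM in the pCPL libraries, against 638, 622 and 637 FPKM in the Teqing2 libraries. The same sum was 212, 199 and 209.9 FPKM in the pOE libraries, against 1071, 1153 and 1074 FPKM in the Teqing3 libraries. No library of either transgenic line overlapped its Teqing group. The sum was carried by few genes: WSI18 made up 37.8% of it in pCPL and 47.5% in Teqing2, whereas LEA3 made up 69.2% in pOE and 44.4% in Teqing3.

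**Figure D1:**
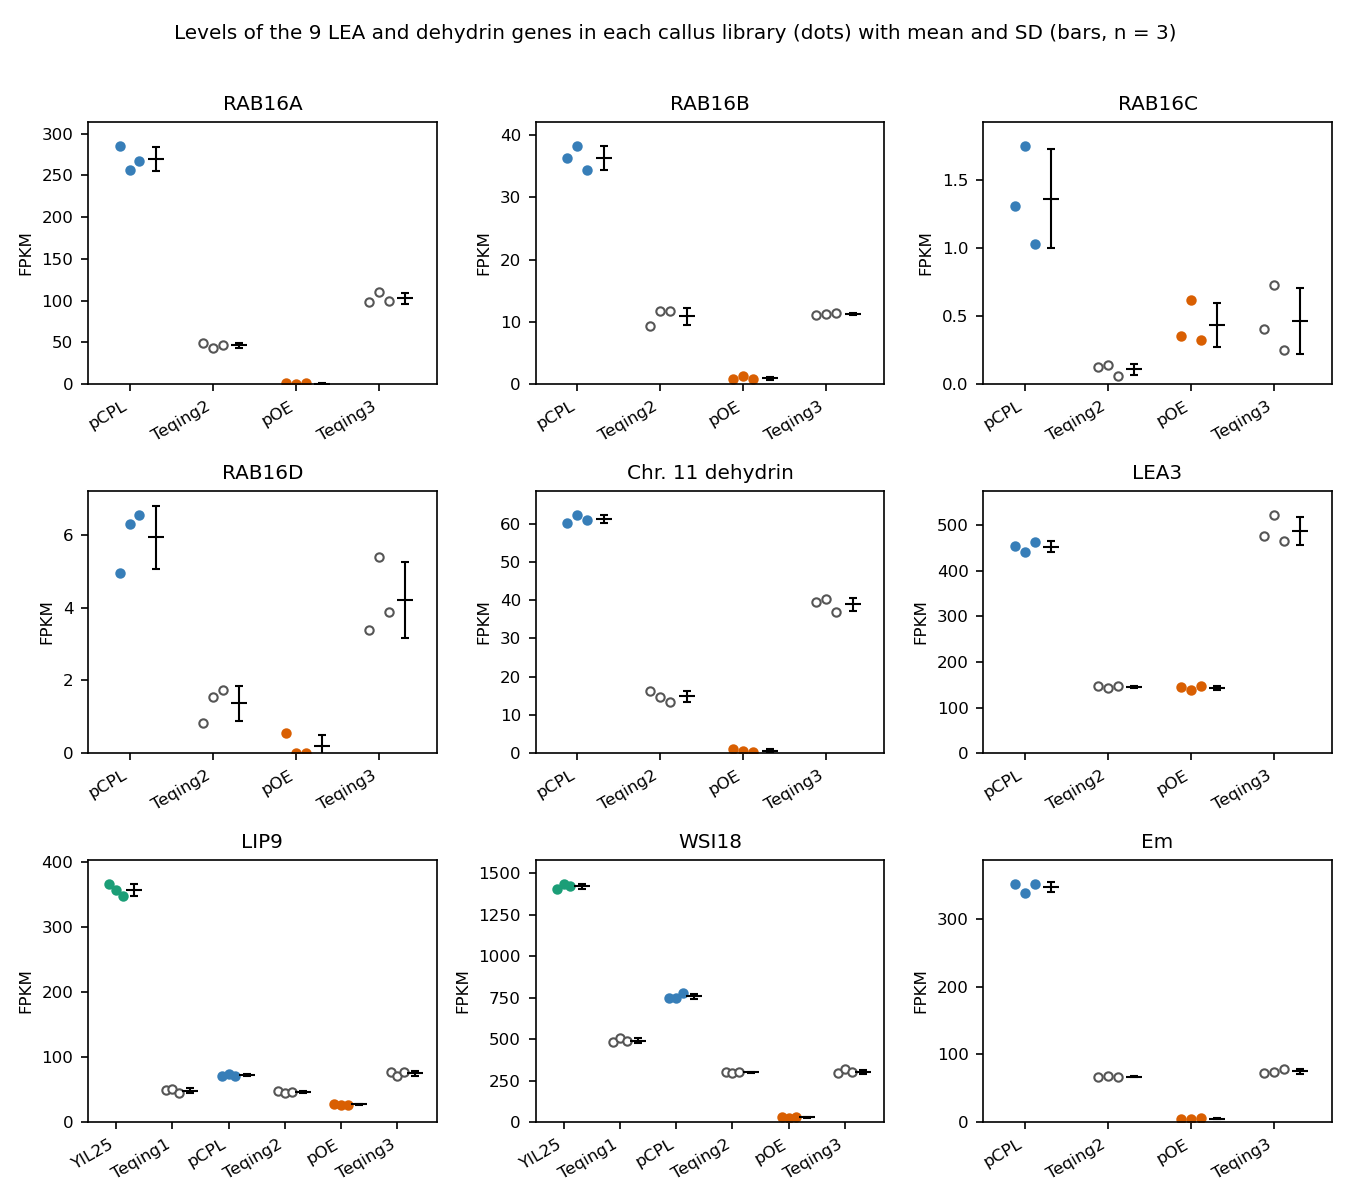
Level of each gene (vertical axes, FPKM, from 0, a separate scale for each gene) in every library, with the mean and SD of each group beside the dots (n = 3; bars are cut at 0). Filled dots are YIL25, pCPL and pOE, and open dots are the Teqing group given for each. RAB16A lay between 257 and 285 FPKM in pCPL and under 1 FPKM in pOE, and RAB16C was at most 1.75 FPKM in any library.

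RAB16A, whose product is a dehydrin named for its response to ABA, showed the widest swing. It is LOC_Os11g26790, at 15342877 to 15343671 on chromosome 11 of IRGSP-1.0, with 708 bases of gene model length in the table. RAB16A was at 285, 257 and 267 FPKM in pCPL, against 48.7, 43.2 and 47.3 FPKM in Teqing2, and the lowest pCPL library was several times the highest Teqing2 library. The mean in pCPL was 5.81 times that in Teqing2 (270 ± 14.5 against 46.4 ± 2.83 FPKM, SD, n = 3 each; log2 fold change 2.51 ± 0.0523, SE; limma adjusted p = 4.74e-10).

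In pOE the same gene was nearly silent. RAB16A was at 0.920, 0.315 and 0.789 FPKM in pOE, which stand for 14, 5 and 13 reads, against 97.8, 110.3 and 100.1 FPKM in Teqing3. The mean in Teqing3 was 152 times that in pOE. The log2 fold change of -5.97 ± 0.130 (limma adjusted p = 8.23e-10) was the most negative among the 22122 genes tested in that table.

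RAB16B, the next gene of the tandem group, followed the same order at a lower level. It is LOC_Os11g26780, at 15336192 to 15337158 on chromosome 11. RAB16B was at 36.4, 38.3 and 34.3 FPKM in pCPL, against 9.33, 11.7 and 11.7 FPKM in Teqing2. It was at 0.747, 1.23 and 0.887 FPKM in pOE, against 11.04, 11.2 and 11.3 FPKM in Teqing3. The groups did not overlap in either comparison, and the Teqing2 and Teqing3 libraries lay close to each other. The log2 fold change was 1.65 ± 0.0854 in pCPL (limma adjusted p = 1.46e-07) and -2.65 ± 0.112 in pOE (limma adjusted p = 5.12e-08), and the mean in Teqing3 was 11.7 times that in pOE.

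RAB16D is LOC_Os11g26750, at 15320288 to 15321526 on chromosome 11, and was measured with few reads. It was at 4.94, 6.30 and 6.55 FPKM in pCPL, against 0.815, 1.55 and 1.74 FPKM in Teqing2. The mean in pCPL was 4.33 times that in Teqing2, without overlap (log2 fold change 1.56 ± 0.168, limma adjusted p = 2.36e-05). In pOE the gene gave 10 reads in replicate 1 and 0 reads in replicates 2 and 3, against 72, 111 and 66 reads in Teqing3. A count of 0 allows up to 0.157 and 0.151 FPKM in those replicates, counting error only. The log2 fold change of RAB16D in pOE was -2.15 ± 0.207 (limma adjusted p = 1.18e-05), and -2.36 without pOE replicate 1, which held every read of the gene in that group.

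RAB16C departed from the other genes. It is LOC_Os11g26760, at 15327769 to 15328657 on chromosome 11, and had the lowest mean of the 9 in pCPL, Teqing2 and Teqing3, while in pOE RAB16D was lower. It gave 17, 23 and 14 reads in pCPL, against 2, 2 and 1 reads in Teqing2, so the rate in pCPL was 12.6 times that in Teqing2 (95% exact interval 5.08 to 40.4, counting error only). The call in pCPL was close to its threshold (log2 fold change 1.08 ± 0.152, limma adjusted p = 1.50e-04), and without pCPL replicate 2 the change was 0.96 and under 2-fold on the log2(FPKM + 1) scale. In pOE it gave 6, 11 and 6 reads, against 8, 14 and 4 reads in Teqing3, and the libraries of the groups overlapped. RAB16C was under 1 FPKM on average in both groups and was therefore not tested in pOE, where the ratio of the rates was 0.911 (95% exact interval 0.497 to 1.66).

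The remaining dehydrin gene of the stretch, LOC_Os11g26570, lies at 15223376 to 15224746. It was at 60.1, 62.3 and 60.9 FPKM in pCPL, against 16.4, 14.6 and 13.5 FPKM in Teqing2. In pOE it was at 0.981, 0.558 and 0.302 FPKM, from 27, 16 and 9 reads, against 39.5, 40.2 and 37.0 FPKM in Teqing3. Every pCPL library lay above every Teqing2 library, and every pOE library was under 1 FPKM. It rose by a log2 fold change of 1.98 ± 0.0647 in pCPL (limma adjusted p = 8.19e-09), and in pOE the log2 fold change was -4.65 ± 0.139 (limma adjusted p = 5.64e-09), with a Teqing3 mean 63.4 times that of pOE.

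The 5 dehydrin genes stand within 120.3 kb, from the start of LOC_Os11g26570 to the end of RAB16A. The tables listed 4 other genes between them, of which 2 passed the filter on low values in each table. Of these, 0 were called in pCPL or in pOE, too few genes to set against the shares over all genes tested. Those shares were 7.84% higher and 5.97% lower in pCPL, and 6.95% higher and 8.9% lower in pOE. LOC_Os11g26720 lay near the filter, at 1.25 FPKM in pCPL against 0.603 FPKM in Teqing2, and 1.36 FPKM in pOE against 1.39 FPKM in Teqing3. The other tested gene between the dehydrin genes, LOC_Os11g26594, averaged 13.2 FPKM in pCPL against 13.02 FPKM in Teqing2, and 18.0 FPKM in pOE against 14.1 FPKM in Teqing3. Within 100 kb on either side of the stretch 2 further genes were tested, and LOC_Os11g26850 was called higher in pCPL (log2 fold change 1.06), where it averaged 369 FPKM against 176 FPKM in Teqing2, while neither was called in pOE. RAB16A to RAB16D are similar in sequence, and how reads that fit several of them were assigned was not given in the sources used here, so the split of reads among the 4 is uncertain. None of the 9 gene models overlapped another gene of the tables.

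**Figure D2:**
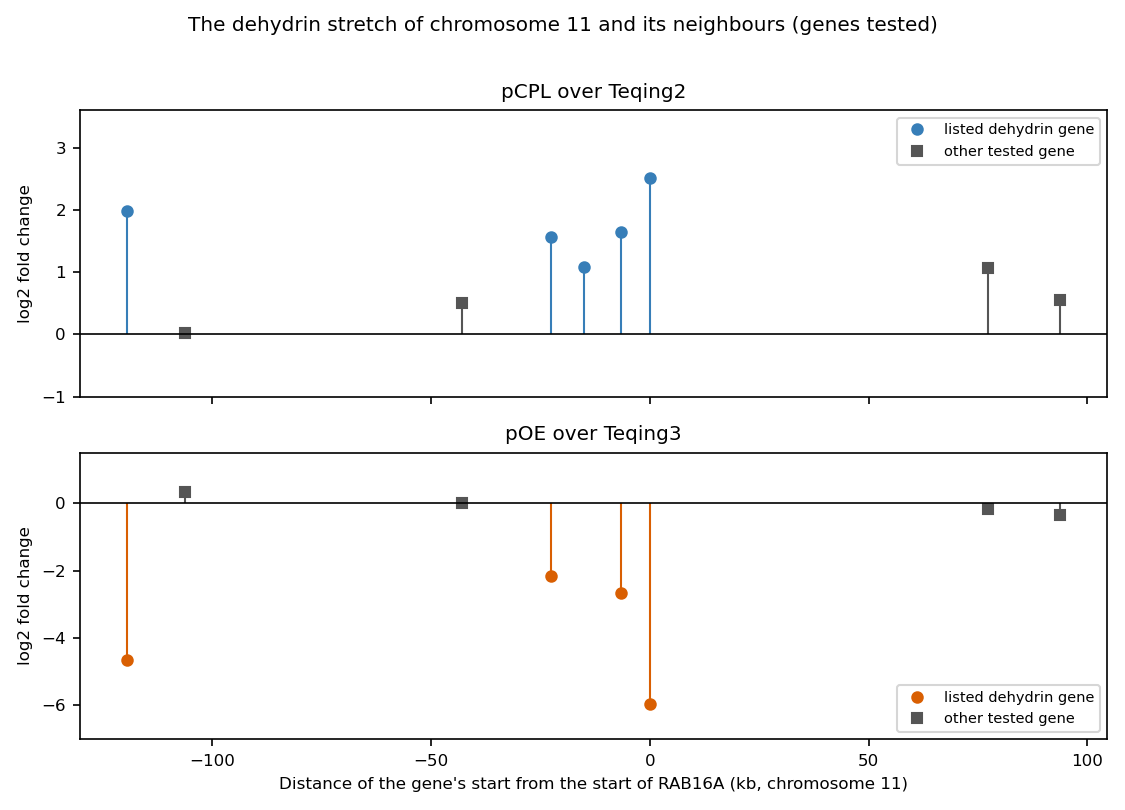
log2 fold change (vertical axes, log2(FPKM + 1) scale, different ranges in the panels) of each tested gene against the distance of its start from the start of RAB16A in kb, for pCPL over Teqing2 (top) and pOE over Teqing3 (bottom). Circles are the dehydrin genes and squares are other genes of the stretch and its flanks. The dehydrin genes lie above 1 in pCPL and below -2 in pOE, where RAB16C was not tested, while the squares between them stay within 2-fold.

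LIP9, a dehydrin gene known for induction by low temperature, was measured in all 3 tables. It is LOC_Os02g44870, at 27165514 to 27166898 on chromosome 2. LIP9 was at 366, 357 and 348 FPKM in YIL25, against 49.5, 51.0 and 45.0 FPKM in Teqing1. The mean in YIL25 was 7.36 times that in Teqing1 (log2 fold change 2.86 ± 0.0501, limma adjusted p = 1.59e-07).

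The change of LIP9 in pCPL was far smaller. LIP9 was at 71.5, 74.0 and 70.8 FPKM in pCPL, against 47.9, 44.2 and 45.7 FPKM in Teqing2. The groups did not overlap, but the log2 fold change of 0.64 ± 0.0414 (limma adjusted p = 6.75e-07) was under 2-fold, so LIP9 was the one gene of the 9 not called in pCPL. In pOE it was at 27.5, 26.9 and 26.6 FPKM, against 77.4, 70.2 and 77.0 FPKM in Teqing3, with a log2 fold change of -1.44 ± 0.0489 (limma adjusted p = 1.25e-08). This was the smallest change among the 8 genes tested in pOE.

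WSI18, a group 3 LEA gene first described as inducible by water stress, had the highest level of the 9 in pCPL. It is LOC_Os01g50910, at 29233040 to 29234256 on chromosome 1. WSI18 was at 1405, 1435 and 1420.2 FPKM in YIL25, against 480, 507 and 487 FPKM in Teqing1. It was at 747, 748 and 776 FPKM in pCPL, against 301, 296 and 303 FPKM in Teqing2. In pOE it was at 31.7, 27.1 and 28.3 FPKM, against 293, 318 and 302 FPKM in Teqing3. The groups did not overlap in any comparison, and the widest spread between replicates was in pOE, with a coefficient of variation of 8.26%. The log2 fold changes were 1.53 ± 0.0266 in YIL25 (limma adjusted p = 1.59e-07), 1.33 ± 0.0263 in pCPL (limma adjusted p = 3.60e-10) and -3.35 ± 0.0580 in pOE (limma adjusted p = 1.87e-10).

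The values in YIL25 depended in part on scaling. The median log2 fold change over all genes of the YIL25 table was -0.13 as deposited and 0.05 after median-of-ratios scaling, and the share of higher genes among all calls was 39.8% as deposited and 52.8% after it. With that scaling the log2 fold change in YIL25 was 3.05 for LIP9 and 1.73 for WSI18, and both remained called.

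LEA3, a group 3 LEA gene known from stressed vegetative tissue as well as seeds, is LOC_Os05g46480, at 26927607 to 26928882 on chromosome 5. LEA3 was at 454, 441 and 464 FPKM in pCPL, against 146, 143 and 148 FPKM in Teqing2. It was at 145, 138 and 147 FPKM in pOE, against 477, 523 and 464 FPKM in Teqing3. The changes, each against its own Teqing, were close to equal in size and opposite in sign: 1.63 ± 0.0296 in pCPL (limma adjusted p = 2.26e-10) and -1.76 ± 0.0465 in pOE (limma adjusted p = 2.62e-09) on the log2 scale. The gap between the Teqing groups was of similar size, with a Teqing3 mean 3.35 times that of Teqing2.

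Em, the gene for a small hydrophilic seed protein, is LOC_Os05g28210, at 16518577 to 16519493 on chromosome 5. Em was at 353, 339 and 352 FPKM in pCPL, against 67.0, 67.4 and 66.0 FPKM in Teqing2. In pOE it was at 4.36, 4.29 and 6.04 FPKM, against 72.2, 74.4 and 78.5 FPKM in Teqing3. The pOE libraries retained a small share of the Teqing3 level and none overlapped it. The log2 fold change was 2.36 ± 0.0295 in pCPL (limma adjusted p = 4.00e-11) and -3.70 ± 0.104 in pOE (limma adjusted p = 3.86e-09).

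**Figure D3:**
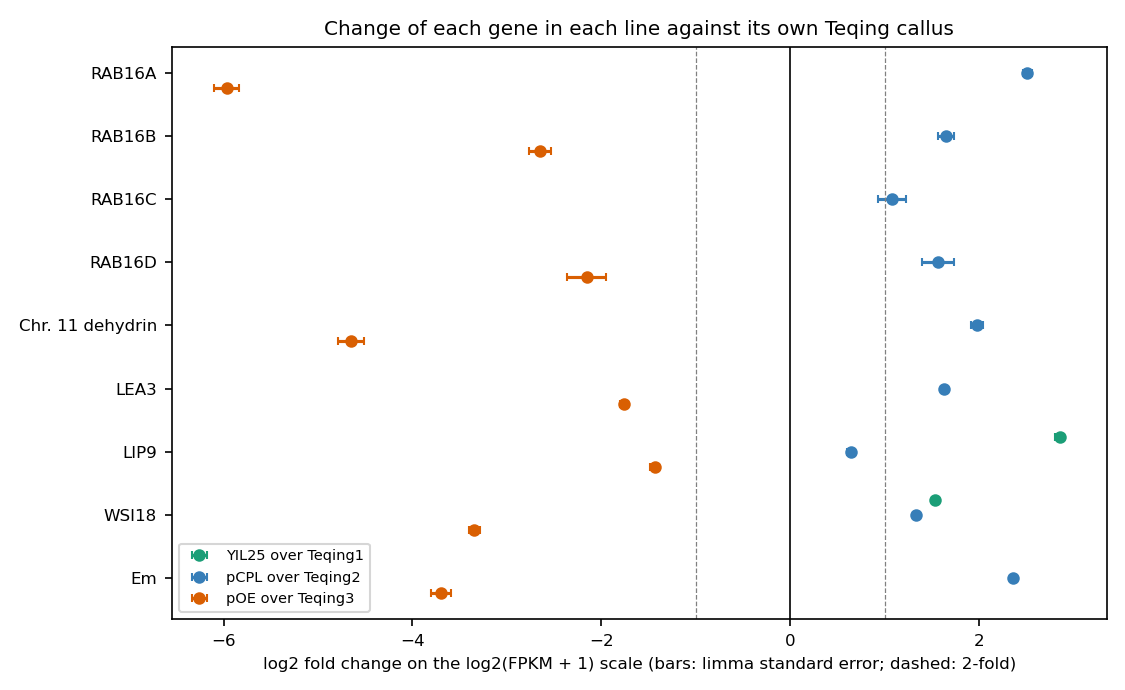
log2 fold change of each gene on the log2(FPKM + 1) scale (horizontal axis) in YIL25 over Teqing1, pCPL over Teqing2 and pOE over Teqing3, with limma standard errors as bars and 2-fold marked by dashed lines. The pCPL points run from 0.64 for LIP9 to 2.51 for RAB16A and the pOE points from -5.97 for RAB16A to -1.44 for LIP9. RAB16C has no pOE point because it was not tested there, and only LIP9 and WSI18 have YIL25 points.

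Whether the changes in pOE and pCPL differed was tested directly, as the pOE change minus the pCPL change. All 8 genes measured above the filter in both tables differed at the adjusted p threshold of 0.001, where 30.3% of the 20867 genes tested had a lower change in pOE and 26.8% a higher one. The difference was widest for RAB16A (log2 difference -8.48 ± 0.153), the chromosome 11 dehydrin LOC_Os11g26570 (-6.62 ± 0.164) and Em (-6.06 ± 0.116). It was narrowest for LIP9 (-2.07 ± 0.0632). WSI18, RAB16B, RAB16D and LEA3 gave differences of -4.68, -4.30, -3.72 and -3.39. Each difference also holds the gap between Teqing3 and Teqing2, which is given below and was wide for LEA3 (3.35 times) and RAB16D (3.08 times). The limma adjusted p of the 8 differences ranged from 1.24e-15 to 3.81e-08.

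The pOE and YIL25 changes and the YIL25 and pCPL changes were compared after the values had been seen. For LIP9 the pOE change minus the YIL25 change was -4.29 ± 0.0692 (limma adjusted p = 7.76e-17), and for WSI18 it was -4.88 ± 0.0672 (limma adjusted p = 1.34e-17), where 28.6% of the 5564 genes tested had a lower change in pOE and 37.1% a higher one. LIP9 rose more in YIL25 than in pCPL, by 2.22 ± 0.0641 on the log2 scale (limma adjusted p = 1.20e-13), where 14.8% of the 5559 genes tested had a higher change in YIL25 and 28.8% a lower one. For WSI18 the YIL25 change minus the pCPL change was 0.20 ± 0.0389 (limma adjusted p = 3.20e-04). The WSI18 difference was 0.42 after median-of-ratios scaling and was past the threshold of 0.001 in only 5 of the 12 fits that left out a library.

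The Teqing groups did not hold one common level of these genes. LEA3 averaged 488 FPKM in Teqing3 against 146 FPKM in Teqing2, a ratio of 3.35, and RAB16A, RAB16D, the chromosome 11 dehydrin LOC_Os11g26570 and LIP9 were 2.21, 3.08, 2.62 and 1.63 times as high in Teqing3. RAB16C had the highest ratio, 4.25, but from 26 reads in Teqing3 and 5 reads in Teqing2. Between Teqing3 and Teqing2 the ratios of WSI18, RAB16B and Em were 1.01, 1.03 and 1.12. Teqing1 gave values for LIP9 and WSI18 alone: LIP9 averaged 48.5 FPKM there, near its 45.9 FPKM in Teqing2, and WSI18 averaged 491 FPKM, above its 304 FPKM in Teqing3 and 300.1 FPKM in Teqing2. Because the tables were normalized separately these ratios carry no test.

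Set beside both Teqing groups, the genes fell into unlike patterns. RAB16A, RAB16B, the chromosome 11 dehydrin LOC_Os11g26570, WSI18 and Em had every pCPL library above every library of Teqing2 and Teqing3, and every pOE library below them. LEA3 did not: its mean in pOE was 143 FPKM beside 146 FPKM in Teqing2, and its mean in pCPL was 453 FPKM beside 488 FPKM in Teqing3. LIP9 in pCPL averaged 72.1 FPKM beside 74.8 FPKM in Teqing3, whereas its 27.0 FPKM in pOE lay below every Teqing mean. RAB16D in pCPL, at 4.94 to 6.55 FPKM, overlapped Teqing3, at 3.39 to 5.38 FPKM. RAB16C in pOE averaged 0.431 FPKM beside 0.461 FPKM in Teqing3 and 0.109 FPKM in Teqing2, from few reads. Whether some genes lay apart from Teqing callus therefore depended on which Teqing group was read. These were LEA3 in either transgenic line, LIP9 and RAB16D in pCPL, and RAB16C in pOE.

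Other LEA and dehydrin loci, 11 of which were listed, showed the same directions in most cases. In pCPL 7 of 10 tested were called higher and none lower (median log2 fold change 1.94), and in pOE 9 of 10 tested were called lower and none higher (median -3.49). Over all genes tested, 7.84% were called higher in pCPL and 8.9% lower in pOE. Some of the 9 averaged under 1 FPKM in pOE and passed the filter there only through Teqing3. LOC_Os04g49980, annotated as a group 1 LEA gene, was at 738 ± 29.7 FPKM in pCPL against 202 ± 6.76 FPKM in Teqing2, and at 18.7 ± 1.37 FPKM in pOE against 268 ± 21.04 FPKM in Teqing3 (SD, n = 3 each). LOC_Os01g50700 was at 227 FPKM in pCPL against 69.7 FPKM in Teqing2, and at 6.79 FPKM in pOE against 88.0 FPKM in Teqing3. In YIL25 neither of the 2 loci tested was called, where 8.41% of all genes tested were called higher and 12.7% lower. LOC_Os01g50700 was at 166 FPKM in YIL25 against 165 FPKM in Teqing1. The most abundant locus, LOC_Os03g45280, went the other way in pCPL, with a log2 fold change of -0.75 that was not called (760 ± 26.9 FPKM in pCPL and 1280.4 ± 38.2 FPKM in Teqing2), and was at 420 FPKM in pOE against 1159 FPKM in Teqing3 (-1.46).

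The upstream genes of the ABA pathway are given list by list, against the same shares over all genes, 7.84% called higher in pCPL and 8.9% called lower in pOE. In YIL25 the shares were 8.41% higher and 12.7% lower. Of the ABA receptors, 4 of 8 listed loci were tested in the pCPL and the pOE tables, and 1 was tested in the YIL25 table and was not called. None was called in pCPL, where the median log2 fold change was -0.22. In pOE only LOC_Os06g36670 was called, with a log2 fold change of -2.19 (28.3 FPKM in pOE and 132 FPKM in Teqing3). The other receptor loci named by level, LOC_Os10g42280 and LOC_Os03g18600, changed by 0.09 and -0.17 in pOE and were not called.

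Among the clade A PP2C phosphatases, the negative regulators of the pathway, 4 of 8 loci tested were called higher in pCPL (median 0.83) and 4 of 7 were called lower in pOE (median -1.28). LOC_Os05g46040 was at 29.9 FPKM in pCPL against 13.8 FPKM in Teqing2, and at 8.69 FPKM in pOE against 26.9 FPKM in Teqing3. LOC_Os01g62760 was at 25.8 FPKM in pCPL against 9.65 FPKM in Teqing2, and at 5.71 FPKM in pOE against 15.5 FPKM in Teqing3. In YIL25 none of 3 tested was called. LOC_Os01g62760 was just short of 2-fold there, with a log2 fold change of 0.99 on the log2(FPKM + 1) scale (limma adjusted p = 1.61e-05). The YIL25 changes of LOC_Os01g40094 and LOC_Os01g46760 were -0.18 and -0.05. The most abundant of the loci, LOC_Os01g40094, was not called in any line.

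The SnRK2 kinases and the bZIP and VP1 factors, which stand between the receptors and the LEA genes, were mostly not called, but most had negative changes in pOE. Of 10 kinase loci, 1 was called higher in pCPL and 3 were called lower in pOE (medians 0.13 and -0.79). LOC_Os12g39630 was called in pOE, at 30.6 FPKM against 71.1 FPKM in Teqing3, while LOC_Os03g55600 and LOC_Os01g64970 changed by less than 2-fold in both transgenic lines. Of 7 factor loci, 1 was called higher in pCPL, 1 was called lower in pOE and 1 of 4 tested was called higher in YIL25. Their log2 fold changes ran from 0.07 to 1.24 in pCPL (median 0.35) and from -1.38 to -0.10 in pOE (median -0.79). LOC_Os01g68370 was called in pCPL (1.24), and LOC_Os01g64000 was called in pOE (-1.38) and in YIL25 (1.16). Both loci were named after their values were seen. The most abundant factor locus, LOC_Os06g10880, was at 83.2 FPKM in pCPL against 44.0 FPKM in Teqing2, and at 53.2 FPKM in pOE against 103 FPKM in Teqing3, with changes of 0.91 and -0.94 that were not called. Next by level, LOC_Os01g64730 changed by 0.63 in pCPL and -0.83 in pOE, and LOC_Os08g36790 by 0.14 and -0.25, none called. In YIL25 the factor changes ran from -0.61, for LOC_Os01g64730 and not called, to 1.16.

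**Figure D4:**
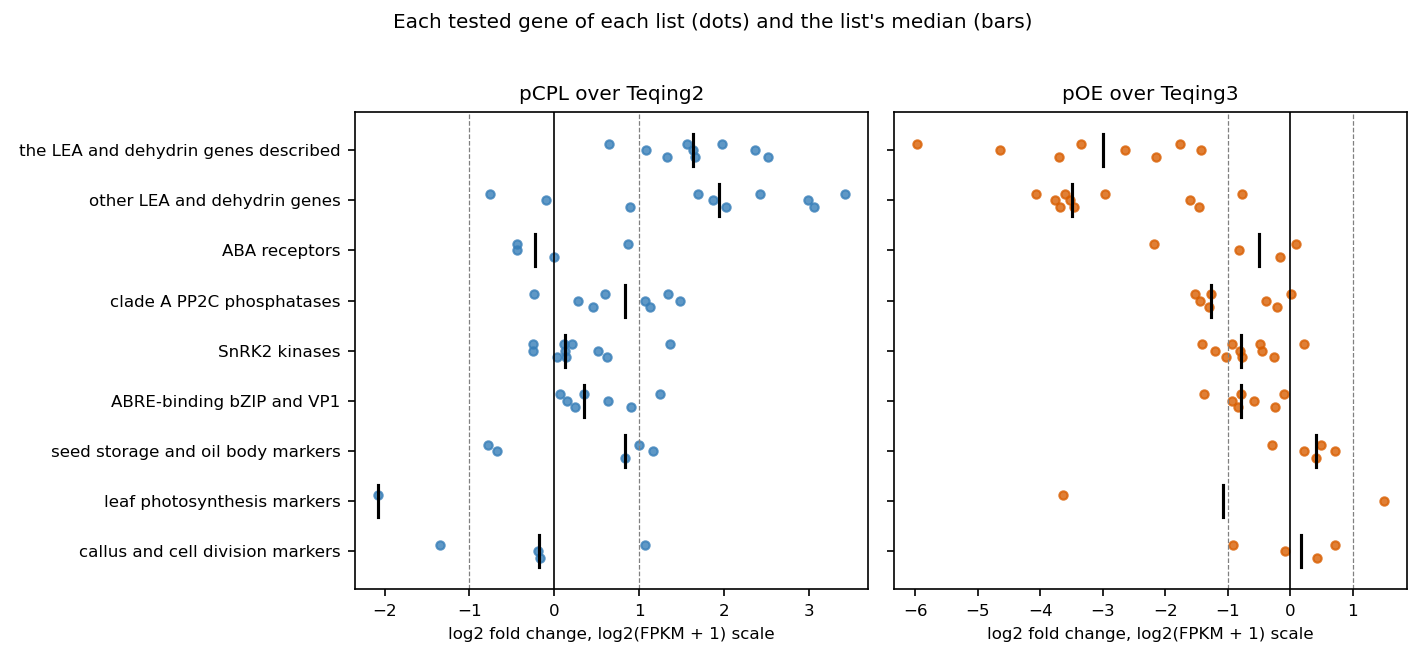
log2 fold change (horizontal axes, log2(FPKM + 1) scale, different ranges) of every tested gene of each list in pCPL over Teqing2 (left) and pOE over Teqing3 (right), with the list's median as a bar and 2-fold as dashed lines. The medians of the 9 genes described are 1.63 and -3.00, those of the other LEA and dehydrin genes 1.94 and -3.49, and those of the SnRK2 kinases 0.13 and -0.79. Lists with few tested genes, such as the leaf markers with 1 and 2, have medians of those genes alone.

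LEA genes are also active in seed tissue, so markers of other tissues were read in the same libraries. Of 7 seed storage and oil body loci, 6 were in the pCPL and pOE tables. In pCPL 2 of 5 tested were called higher, where 7.84% of all genes tested were called higher and 5.97% lower. The summed level was 296 to 305 FPKM in pCPL against 150.2 to 172 FPKM in Teqing2. In pOE none of 5 tested was called, where 6.95% of all genes tested were called higher and 8.9% lower. The summed level was 83.3 to 94.3 FPKM in pOE against 59.7 to 69.9 FPKM in Teqing3, the opposite direction to the LEA genes there. The loci of this list that carried the sum were LOC_Os04g46200, at 147 FPKM in pCPL against 82.2 FPKM in Teqing2, and LOC_Os03g49190, at 145 FPKM in pCPL against 64.2 FPKM in Teqing2. LOC_Os05g50110, at 4.67 FPKM in pCPL against 8.02 FPKM in Teqing2, and LOC_Os10g26060, at 3.39 FPKM in pCPL against 6.50 FPKM in Teqing2, had changes of -0.67 and -0.78 that were not called. Their part in the higher LEA levels in pCPL was not tested, and in bulk callus a change in the make-up of the tissue and a change in RNA per cell cannot be told apart.

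Of the 5 leaf photosynthesis loci, 1 passed the filter on low values in pCPL and 2 passed it in pOE, and 1 was at 0 in all libraries of both tables. LOC_Os09g17740 was at 12.3 FPKM in pCPL against 54.9 FPKM in Teqing2, and at 3.02 FPKM in pOE against 49.0 FPKM in Teqing3, so it fell in both lines. LOC_Os01g41710, named after its values were seen, was called higher in pOE with a log2 fold change of 1.49 (3.26 FPKM in pOE and 0.507 FPKM in Teqing3). The 4 callus and cell division loci were all expressed. In pCPL 1 was called higher and 1 lower, with LOC_Os02g40070 at 48.5 FPKM in pCPL against 125 FPKM in Teqing2, and none was called in pOE. Over all genes tested, 7.84% were called higher and 5.97% lower in pCPL, and 6.95% higher and 8.9% lower in pOE. The part of these markers in the LEA results was not tested.

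The genes whose pattern over the 12 libraries of the pCPL and pOE tables was most like that of the 9 were looked for among 14496 genes with a mean of at least 5 FPKM. Likeness was the root mean square difference from the median profile of the 9 genes, on log2(FPKM + 1) centred within each table. The nearest was LOC_Os10g39610 (0.0912), at 1619 ± 57.4 FPKM in pCPL against 520 ± 10.002 FPKM in Teqing2, and at 202 ± 3.01 FPKM in pOE against 1221 ± 123 FPKM in Teqing3. LOC_Os01g07870 (0.117), LOC_Os03g42520 (0.121), LOC_Os02g43330 (0.133) and LOC_Os03g16920 (0.133) followed. Among the 9 genes themselves RAB16B lay nearest to the median profile (0.0768) and RAB16A farthest from it (1.20). The 12 libraries fall into 4 groups, so likeness over them rests on few independent contrasts.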

How the data were processed

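RNA from callus was sequenced on an Illumina HiSeq instrument and, in the authors' methods, reads were mapped with TopHat2 to IRGSP-1.0 (MSU7 gene models). Cufflinks, bcl2fastq and CASAVA 1.8 are further tools in the submitters' processing notes. The deposited tables give FPKM per gene and library. Whether counting used strand was not given in the sources used here. Each table also holds the authors' fold changes and p-values, which were not used. The YIL25 table has 65535 rows and ends on chromosome 3, and what lies beyond was not analysed here.

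FPKM steps gave whole reads (tolerance 0.02 reads, genes under 60 reads) for 100% of values in the pCPL and pOE tables and for 92.0% to 93.3% in the YIL25 table, whose gene lengths came from the other tables. The totals behind the FPKM were not the sums over genes (ratio of reads over genes to that total 0.934 to 1.06). Groups came from the sample titles. Tests used limma 3.58.1 in R 4.3.3 with a trended prior on log2(FPKM + 1), without a replicate block, and were tested on simulated data. Genes that averaged more than 1 FPKM in the line or its Teqing entered. The p-values measure the spread between the 3 libraries of a group.

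The 9 genes, the gene lists and the tests were chosen with earlier results of these data known. Gene names are those of the chosen set, and list loci came from general knowledge of rice and are named by locus. Named were all 9 genes, the 5 genes most like them, and up to 3 loci per list with the highest mean over 12 libraries. Loci named outside that rule were chosen for position beside the dehydrin stretch, as the transgene, or after their values were seen. The last were LOC_Os01g41710, LOC_Os10g26060, LOC_Os01g55690, LOC_Os01g46760, LOC_Os01g68370 and LOC_Os01g64000. The alternatives tried were scaling by the median of ratios, a filter at 5 FPKM or none, a pseudocount of 0.1 FPKM, voom on the recovered reads, an adjusted p under 0.05 with no fold threshold, a replicate block, and each library left out in turn.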

Additional observations from a re-analysis of the deposited data

Results flagged for a closer look

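The changes of the LEA and dehydrin genes differed between lines by limma's test of the difference itself, at an adjusted p under 0.001. So did many other genes: 30.3% of all genes tested were lower and 26.8% higher for pOE minus pCPL, 28.6% lower and 37.1% higher for pOE minus YIL25, and 28.8% lower and 14.8% higher for YIL25 minus pCPL. The pOE change minus the pCPL change was -8.48 for RAB16A, -4.30 for RAB16B, -3.72 for RAB16D, -6.62 for the chromosome 11 dehydrin LOC_Os11g26570, -3.39 for LEA3, -2.07 for LIP9, -4.68 for WSI18 and -6.06 for Em, all on the log2 scale. The pOE change minus the YIL25 change was -4.29 for LIP9 and -4.88 for WSI18. All these differences also hold the gap between the Teqing groups of the lines compared. The YIL25 change minus the pCPL change was 2.22 for LIP9 and 0.20 for WSI18, and the WSI18 value lost its call in 8 of 17 alternative settings.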

How the results depend on the processing

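The count of genes called in each line stayed within 1.5 times its value in all 38 alternative settings. In pCPL it was 7 to 8 of 9 with a library left out, where 2876 to 2975 of 21640 to 21684 genes tested were called. It was 9 of 9 at an adjusted p under 0.05 with no fold threshold, where 15284 of 21659 genes tested were called. In pOE it was 8 of 8 with a library left out, where 3357 to 3465 of 22108 to 22145 genes tested were called. With no filter it was 8 of 9 in pOE, where 3308 of 30517 genes tested were called. With the filter at 5 FPKM it was 7 of 7 in pOE, where 2672 of 15514 genes tested were called. Of the fold changes, 223 alternative values kept direction and call and 1 did not: RAB16C in pCPL was 0.96 without pCPL replicate 2. Of the differences between changes, 195 kept both and 8 did not, all for WSI18 between YIL25 and pCPL (0.18 to 0.22 with a library left out). Low genes depended most on the scale of the test: with voom on recovered reads, RAB16C in pCPL was 3.33, RAB16D in pOE was -5.84 and RAB16A in pOE was -7.31. With no fold threshold, an adjusted p under 0.05 called 5957 of 8196 genes tested in YIL25. It called 15284 of 21659 in pCPL and 15955 of 22122 in pOE. The fold threshold with an adjusted p under 0.001 left 1730, 2992 and 3506.

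The replicate numbers did not pair samples: same-numbered libraries of a line and its Teqing correlated at -0.03 to 0.01 in their deviations. With a replicate block, 2 of 2, 8 of 9 and 8 of 8 of the genes tested were called in YIL25, pCPL and pOE. Of all genes tested, 1268 of 8196, 2981 of 21659 and 3482 of 22122 were called under the block in those lines. No fold change of the 9 genes lost its call. The WSI18 difference between YIL25 and pCPL kept its value of 0.20 at an adjusted p of 0.00119 by limma.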
